A study of Mus musculus with 4 samples.

Results

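The genes described here encode the subunits, activators, inhibitor and assembly factors of the proteasome. They were chosen by name: every protein-coding gene of the mouse count table with a symbol made of Psma, Psmb, Psmc, Psmd, Psme, Psmf or Psmg and a number, leaving out the recombination cofactor Psmc3ip and the pseudogenes. The rule found 48 genes among 54232 rows of the table, of which 21983 are protein-coding. All 48 had enough reads to be tested. The near copy Psme2b fell outside the rule because of its trailing letter.

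In testes of Dis3 knockout mice, transcripts of most proteasome genes were lower than in control testes, by a median of -0.27 on the log2 scale. The largest fall was that of Psma8, the germ cell form of a ring subunit, which fell by 0.71 ± 0.0611 (log2, SE, 2 libraries per genotype) and is the single member of its class. Among the base ATPases Psmc4, Psmc3 and Psmc2 fell by between 0.53 and 0.61, while Psma7, the general form that Psma8 replaces, was not called. Genes of at least 10 CPM (read counts scaled to library depth) were also called lower more often than higher, 42.0% against 9.03%. Their median was -0.16, with quartiles of -0.35 and 0.04, so the median of the proteasome genes stood about 0.11 below theirs. Without KO replicate 1 this difference was -0.07. Of the 4 immune and thymus subunits, each with a mean under 10 CPM, none was called lower. Over all genes tested, 20.3% were called lower and 11.6% higher. Psmb9 was called higher at a low level, a call lost in 9 of 12 alternative treatments of the counts, and Psmb8 and Psmb10 were not called. Of 12 macrophage markers 9 were higher in KO, and a link to Psmb9 was not tested.

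The study sequenced RNA of whole testes from mice at postnatal day 17, an age when the most advanced germ cells are spermatocytes in meiotic prophase. The 2 KO libraries were made from Dis3 conditional knockout mice, Dis3 being the gene for a ribonuclease of the RNA exosome, and the 2 WT libraries were made from control mice. Both genotypes are of the B6D2F1 background. No source used here gives the allele or the Cre driver, and so the cells in which Dis3 was deleted. Nothing in the labels ties the libraries to separate animals, and the p-values therefore measure the spread between libraries, which may be technical.

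Reads counted in genes were 17663416 and 19255782 in KO replicates 1 and 2, against 31031920 and 40329170 in WT replicates 1 and 2. Dis3 itself had 39.6 and 42.9 CPM in KO, against 80.2 and 80.7 CPM in WT. This fall of 0.96 ± 0.0729 (log2, SE) passed edgeR's quasi-likelihood test with Benjamini-Hochberg adjustment (adjusted p = 2.34e-09). Proteasome genes took 0.464% and 0.482% of the gene reads in KO, against 0.530% and 0.535% in WT. Reads spread outside genes were denser in KO, at an estimated 0.172 and 0.171 CPM per kilobase on 1 strand in KO, against 0.0964 and 0.0708 in WT, a ratio of means of 2.05. The labels name the molecule as polyA RNA, while their protocol starts from total RNA and primes it with random as well as poly(T) primers, so which transcripts outside genes could be captured is not settled by the labels. In whole testis, fewer cells of a type and less RNA per cell cannot be told apart.

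The proteasome is a barrel of stacked rings that cuts up proteins tagged with ubiquitin. Alpha subunits form the outer rings and gate the entrance, beta subunits form the inner rings, and some of the beta subunits carry the cutting sites. A cap with a ring of ATPases and a set of non-ATPase subunits recognises tagged proteins, unfolds them and feeds them in. Cells can swap parts: immune subunits replace the constitutive cutting subunits after interferon, and spermatocytes swap the alpha subunit Psma7 for Psma8, which in mice is needed to complete meiosis. The activator Psme4, also called PA200, caps proteasomes of germ cells and is needed for normal sperm formation in mice.

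Across all members, 28 of 48 were lower in KO and 1 was higher at an adjusted p under 0.05 (edgeR). Over all 25076 genes tested, 20.3% were lower and 11.6% higher. Proteasome genes are mostly abundant, and abundant genes were lower more often: of the 10729 genes with a mean of at least 10 CPM, 42.0% were lower and 9.03% higher, with 27 of the 42 members at that level lower (64.3%) and 0 higher. The members' median was -0.27, the median of all tested genes 0.05, and that of the genes of at least 10 CPM -0.16. Fold changes were negative for 45 of the 48 members, against 11498 of all 25076 genes tested. Among genes of at least 10 CPM they were negative for 42 of 42 members, against 7537 of 10729 genes. The exceptions, Psmb8, Psmb9 and Psmb11, each had a mean under 10 CPM. The values of KO and WT did not overlap, with KO lower for 39 members and higher for 2, against 32.7% lower and 35.6% higher of all tested genes. Among genes of at least 10 CPM the groups were apart with KO lower for 37 of 42 members and higher for 0, against 58.2% and 19.9% of all genes at that level. Summed over all 48 genes, the level was 4496 and 4507 CPM in KO, against 5560 and 5695 CPM in WT, a ratio of 0.800. Without Psma8 the ratio was 0.807.

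**Figure D1:**
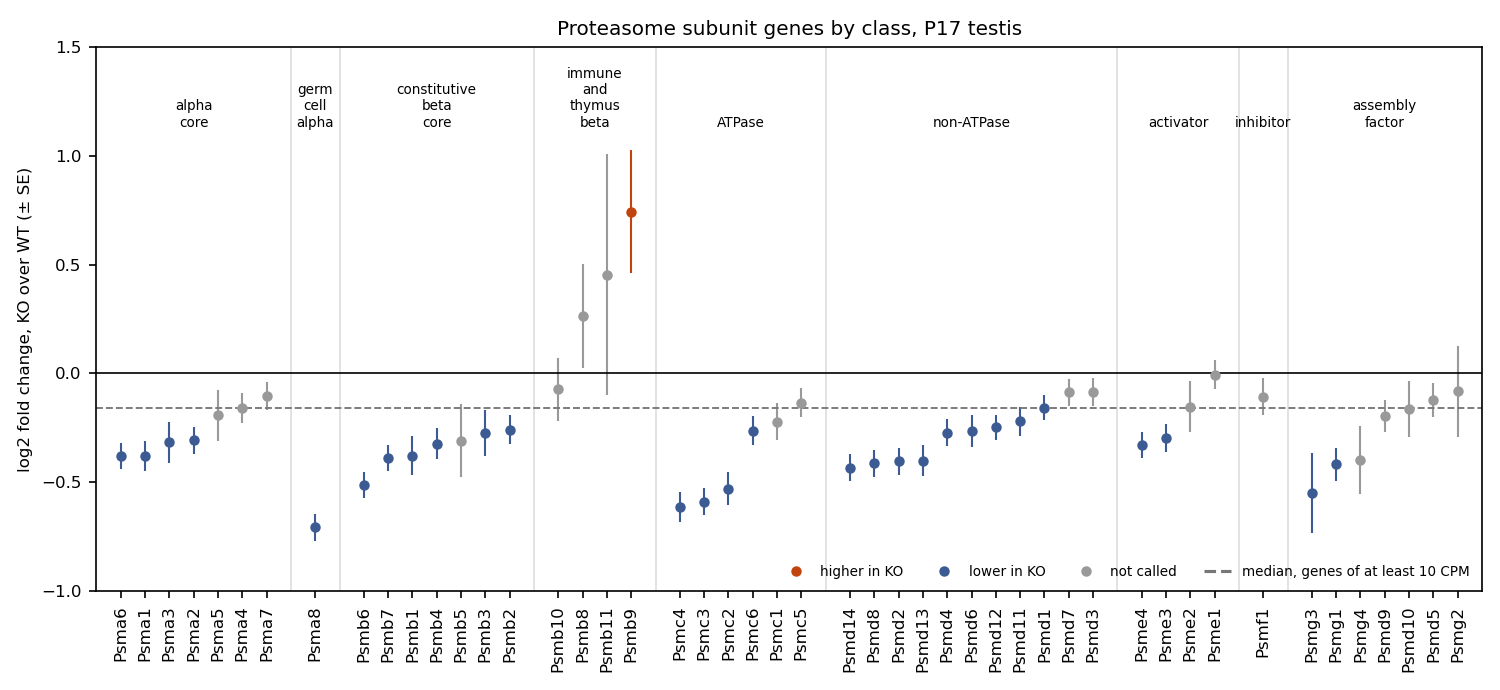
Log2 fold change of each proteasome gene, KO over WT, with its standard error from edgeR (y axis), by class of subunit (x axis, ordered within a class by size); colours mark genes called higher, lower or not called at an adjusted p under 0.05, from 2 libraries per genotype. The dashed line is the median of genes with at least 10 CPM, -0.16; Psma8 lies lowest at -0.71 and Psmb9 highest at 0.74.

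The outer ring held the largest change. Psma8 (chr18:14706151-14762299, + strand, GRCm38) had 129.8 and 129.7 CPM in KO, against 204 and 219.8 CPM in WT. Both KO libraries lay well below both WT libraries, and the difference of -0.71 ± 0.0611 (log2, SE) passed the test (adjusted p = 1.10e-08). Psma7, on chromosome 2, had 88.7 and 92.3 CPM in KO, against 96.6 and 97.9 CPM in WT. The Psma7 groups did not overlap either, but the difference of -0.10 ± 0.0634 did not pass the test (adjusted p = 0.216). Per kilobase of exon, Psma8 was among the most abundant members at this age, with a mean of 76.6 CPM per kilobase in KO and 125 in WT, while Psma7 had 29.5 in KO and 31.7 in WT. The 2 genes together made up 218 and 222 CPM in KO, against 300.2 and 318 CPM in WT.

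Because a ratio of 2 genes within a library does not depend on how libraries are scaled, Psma8 was also set against Psma7 in each library. There were 2.65 and 2.55 Psma8 reads per kilobase for each of Psma7 in KO, against 3.82 and 4.07 in WT. Both KO ratios were lower, by 0.60 on the log2 scale as a mean. An exact two-sided permutation test over 4 libraries has 6 relabellings and cannot go below p = 0.33, which is the value it gave here (0.417 after adjustment over the 5 ratios compared). Leaving out each library in turn moved the difference between -0.65 and -0.56.

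The other alpha subunits, Psma1 to Psma6, form the ring positions that are common to all proteasomes. Of the 7 alpha core genes with Psma7 included, 4 were lower and 3 not called, with a median of -0.31. Over genes of at least 10 CPM, 42.0% were lower, with a median of -0.16. Psma6 had 120.3 and 125 CPM in KO, against 159.7 and 159.5 CPM in WT, a difference of -0.38 ± 0.0602 (edgeR, adjusted p = 3.50e-05). Psma1, Psma3 and Psma2 were lower by between 0.31 and 0.38. Psma4 and Psma5 were at -0.16 and -0.19 and were not called.

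Of the 7 constitutive beta subunit genes 6 were called lower and none higher, with a median of -0.32, beside 42.0% lower and a median of -0.16 over genes of at least 10 CPM. With background subtracted and TMM computed anew, Psmb6 and Psmb7 stayed called. Psmb6 (chr11:70525367-70527858, + strand), which carries the caspase-like cutting site, had 188 and 179 CPM in KO, against 260.5 and 263 CPM in WT. The 2 KO libraries were clear of the WT libraries, and the fall of 0.51 ± 0.0592 passed the test (edgeR, adjusted p = 5.82e-07). Psmb7, which carries the trypsin-like site, had 157 and 161 CPM in KO, against 204 and 213 CPM in WT, with no overlap and a difference of -0.39 ± 0.0593 (edgeR, adjusted p = 2.12e-05). Psmb5, which carries the chymotrypsin-like site, had 9.44 and 15.4 CPM in KO, against 15.8 and 15.2 CPM in WT. Its KO replicate 1 was low and its KO replicate 2 lay between the WT values, and the difference of -0.31 ± 0.168 was not called (adjusted p = 0.174). Psmb1, Psmb2, Psmb3 and Psmb4, which have no cutting site, were each called lower, at between -0.38 and -0.26, and Psmb3 lost its call in 5 of 12 alternatives.

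Among the immune subunits, Psmb8 replaces Psmb5, Psmb9 replaces Psmb6 and Psmb10 replaces Psmb7. Psmb11 is the form known from the thymus. All 4 were scarce in these testes. Psmb9 had 2.63 and 2.67 CPM in KO, against 1.76 and 1.42 CPM in WT, from 48 and 55 reads in KO and 52 and 54 reads in WT. Both KO values were higher, and the difference of 0.74 ± 0.284 passed narrowly (edgeR, adjusted p = 0.0488). Psmb9 lost its call in 9 of 12 alternative treatments of the counts, with adjusted p between 0.0271 and 0.240 and a positive fold change in each. The Psmb9 level was 4.23 times the estimated read density outside genes in KO and 5.23 times in WT.

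Psmb8 had 3.79 and 2.91 CPM in KO, against 2.84 and 2.72 CPM in WT, with KO above WT in both libraries by little, and was not called (edgeR, 0.27 ± 0.238, adjusted p = 0.407). Psmb10 had 7.96 and 9.42 CPM in KO, against 9.10 and 9.20 CPM in WT, so the groups overlapped (-0.07 ± 0.145, edgeR, adjusted p = 0.735). Psmb11 stayed below 1 CPM in each library and at 0.909 times the density outside genes in KO and 1.36 times in WT, so its reads cannot be told from that background.

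Ratios to the replaced subunit showed the same order of sizes. Per kilobase, Psmb9 stood to Psmb6 at 0.00716 and 0.00764 in KO, against 0.00346 and 0.00277 in WT, a log2 difference of 1.26. Psmb10 stood to Psmb7 at 0.102 and 0.118 in KO, against 0.0897 and 0.0868 in WT, a log2 difference of 0.31. A ratio also rises when the replaced subunit falls: Psmb10 was not called (-0.07) and Psmb7 was at -0.39. Psmb9 was at 0.74 and Psmb6 at -0.51. In both pairs the KO ratios lay above the WT ratios in each library, and the exact permutation test over 4 libraries gave p = 0.33, the smallest it can give. Psmb8 stood to Psmb5 at 0.132 and 0.0622 in KO, against 0.0591 and 0.0587 in WT. That difference of 0.62 on the log2 scale rested on KO replicate 1, without which it was 0.08.

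Macrophages and lymphocytes can carry immune subunits. Of 12 macrophage markers, 9 were higher in KO and 1 (Fcgr3) lower, and their summed level was 332 and 328 CPM in KO, against 230.4 and 232 CPM in WT. Over all genes tested, 11.6% were higher and 20.3% lower. Cd68 and Lyz2 were higher by 1.13 and 0.96 on the log2 scale. Of 7 lymphocyte markers 6 could be tested and none was called, with summed levels of 17.5 and 15.8 CPM in KO, against 14.5 and 16.3 CPM in WT. None of the markers in either list was at 0 in all libraries. The part of these cells in the Psmb9 result was not tested. Of 13 genes of antigen presentation by MHC class I, which uses peptides cut by the proteasome, 4 were higher and 2 lower, with a median of 0.12, which turned to -0.05 with scaling to Sertoli cell genes and to -0.04 without KO replicate 2. The calls were of unequal firmness: of 12 alternatives B2m was called in 12, Tap1 and Calr in 10 each, Pdia3 in 8, Nlrc5 in 6 and H2-D1 in 3. B2m, the light chain, was higher by 0.35, the peptide transporter gene Tap1 by 0.58 and the activator Nlrc5 by 0.84, while the chaperone genes Calr and Pdia3 were lower, at -0.23 and -0.17. Psmb9 and Tap1 are neighbours on opposite strands, and their annotated transcripts overlap.

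**Figure D2:**
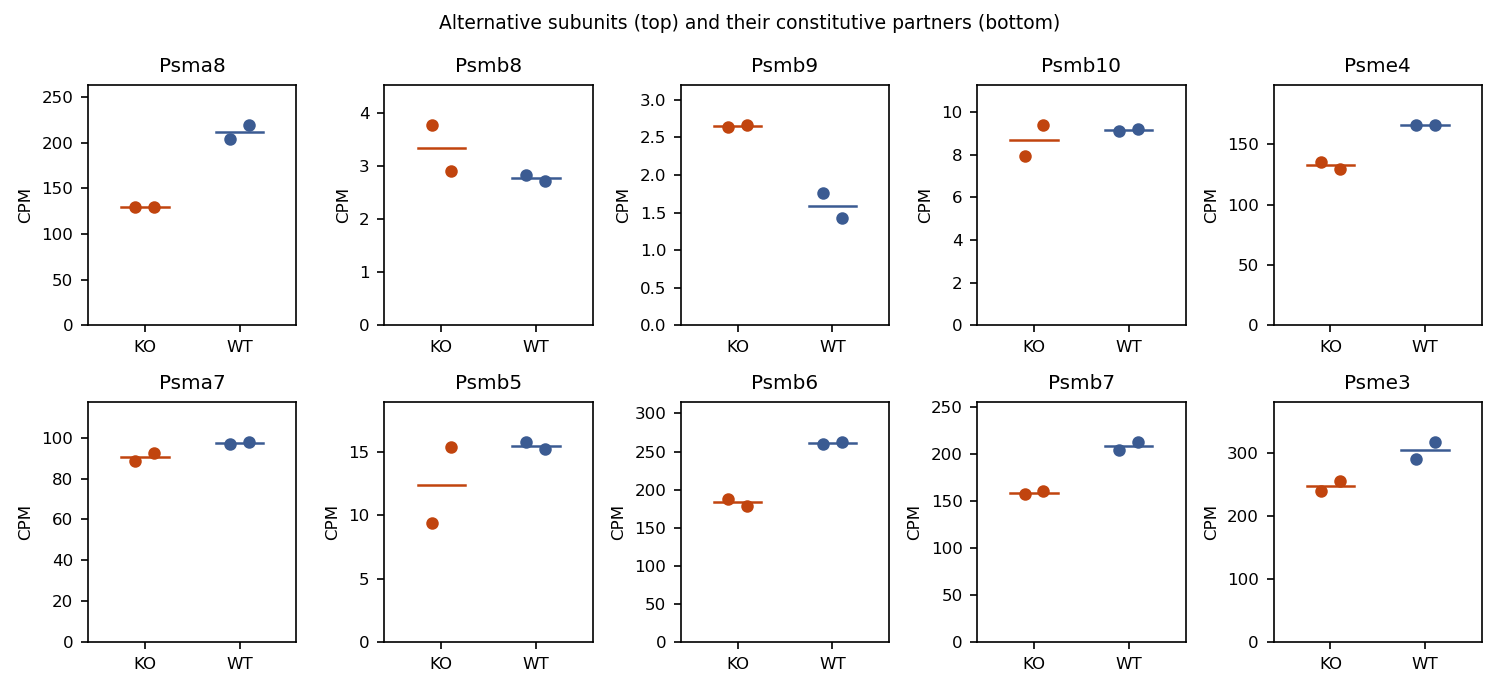
Level in CPM (y axes, each from 0) of 5 alternative proteasome genes (top) and the gene each was set against (bottom) in 2 KO and 2 WT libraries; points are libraries and lines are means. Psma8 is lower in both KO libraries while Psma7 differs little, Psmb9 is higher in both KO libraries at under 3 CPM, and Psmb5 has 1 low KO library at 9.44 CPM.

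The ATPases of the cap base showed the lowest median of the classes with several members, -0.40, with 4 of 6 lower and none higher. The median of genes of at least 10 CPM was -0.16, with 42.0% of them lower. Psmc4 (chr7:28041707-28050101, - strand) had 48.5 and 49.5 CPM in KO, against 73.4 and 76.7 CPM in WT, a difference of -0.61 ± 0.0707 (edgeR, adjusted p = 5.36e-07). Psmc3 (chr2:91054009-91066369, + strand) had 228 and 214 CPM in KO, against 338 and 327 CPM in WT, a difference of -0.59 ± 0.0601 (edgeR, adjusted p = 1.05e-07). Psmc2 (chr5:21785283-21803787, + strand) had 135 and 125 CPM in KO, against 171 and 205 CPM in WT, a difference of -0.53 ± 0.0757 (edgeR, adjusted p = 3.10e-05). For these 3 genes each KO library was lower than each WT library, and the WT libraries of Psmc2 were the most spread. Psmc6 was called at a smaller size, -0.26, and Psmc1 and Psmc5 were not called, at -0.22 and -0.13. Each ATPase has its own position in the ring.

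Of 11 non-ATPase subunits of the cap, 9 were lower and none higher, with a median of -0.26. Beside this stand 42.0% lower and a median of -0.16 over genes of at least 10 CPM. Psmd14, the enzyme that removes ubiquitin chains as the substrate enters, had 114 and 121 CPM in KO, against 159 and 157 CPM in WT, a difference of -0.43 ± 0.0611 (edgeR, adjusted p = 8.34e-06). The lid subunits Psmd8 (-0.41) and Psmd13 (-0.40) and the base scaffold Psmd2 (-0.40) were close to it. The ubiquitin receptor Psmd4 was lower by 0.27, and the large scaffold Psmd1 by 0.16, which is the median of genes at this level. Psmd3 and Psmd7 were each near -0.09 and not called, so subunits that are built into the same cap differed in the size of the change.

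Among the activators, Psme4 and Psme3 were lower and Psme1 and Psme2 were not called. Psme4 had 136 and 129 CPM in KO, against 166 and 166 CPM in WT, with no overlap and a difference of -0.33 ± 0.0600 (edgeR, adjusted p = 0.000189). Psme3, which encodes a nuclear activator, differed by about as much (-0.30), and the ratio of Psme4 to Psme3 within a library overlapped between the genotypes (log2 difference -0.03, exact permutation p = 0.667). Psme1 and Psme2 encode the interferon-inducible activator, and Psme1 had 90.4 and 89.7 CPM in KO, against 94.4 and 86.6 CPM in WT. The inhibitor Psmf1 was at -0.11 and not called.

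Of 7 assembly factors, which help the rings or the cap form and leave the finished particle, 2 were lower and 5 not called, with a median of -0.20. The share lower was 42.0% over genes of at least 10 CPM, with a median of -0.16, and 20.3% over all genes tested. Psmg1, part of the dimer that builds the alpha ring, had 53.1 and 46.5 CPM in KO, against 67.4 and 65.6 CPM in WT, a difference of -0.42 ± 0.0762 (edgeR, adjusted p = 0.000178). Psmg2, its partner in that dimer, had 59.5 and 57.0 CPM in KO, against 73.2 and 50.6 CPM in WT, so the 2 WT libraries lay on both sides of the KO values. The difference for Psmg2 was not called (edgeR, adjusted p = 0.803). Psmg3 was the other called gene, at 4.94 and 4.56 CPM in KO, against 5.99 and 7.83 CPM in WT, and lost its call in 4 of 12 alternatives. The base chaperones Psmd5, Psmd9 and Psmd10 were between -0.20 and -0.12 and were not called.

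For 8 members more than 50% of a transcript is at least 95% identical to other annotated genes over stretches of at least 100 bases, so reads may have been lost or split. These are Psma4, Psma5, Psmb3, Psmb5, Psmc1, Psmd2, Psmd11 and Psme2, and their counts are uncertain. Of these, 3 were lower (Psmb3, Psmd2 and Psmd11). Of the 40 members without such cover 25 were lower.

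The proteasome needs further proteins that the naming rule does not catch. Of 19 tested partners and assembly aids, 10 were lower and 1 (Ubqln2) higher, with a median of -0.21. This is near the level of genes of at least 10 CPM, of which 42.0% were lower and 9.03% higher, with a median of -0.16. Fbxo7, which binds the inhibitor Psmf1, had 59.8 and 53.2 CPM in KO, against 88.4 and 90.6 CPM in WT, a difference of -0.67 ± 0.0713 (edgeR, adjusted p = 2.06e-07). The ubiquitin-removing enzyme gene Uchl5 was lower, at -0.52, and so was the nuclear import factor gene Akirin2, at -0.37. Ubqln2, which carries tagged proteins to the proteasome, was higher by 0.22, a call that was lost in 5 of 12 alternatives (lowest 0.06, with scaling to Sertoli cell genes).

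Ubiquitin and E1 genes were lower in 6 of 7 cases, with a median of -0.26, beside 42.0% and -0.16 over genes of at least 10 CPM. Ubb had 778 and 736 CPM in KO, against 1065 and 1158 CPM in WT, a difference of -0.55 ± 0.0641 (edgeR, adjusted p = 5.79e-07). Rps27a, which fuses ubiquitin to a ribosomal protein, was lower by 0.53, and the E1 gene Uba6 by 0.26. Genes of the p97 segregase, which pulls tagged proteins out of complexes ahead of the proteasome, were lower in 8 of 10 cases with a median of -0.28. Among them Vcp, the ATPase itself, was at -0.35, and its cofactors Ubxn1, Faf1 and Nsfl1c were between -0.38 and -0.32.

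Of 11 genes that control proteasome gene transcription, 2 were lower and none higher, with a median of -0.00 that ran from -0.16 to 0.12 across alternatives. Of genes of at least 10 CPM, 42.0% were lower and 9.03% higher. Nfe2l1, the factor that raises proteasome genes when the particle is inhibited, had 185 and 190.7 CPM in KO, against 174 and 170.0 CPM in WT, and was not called (edgeR, adjusted p = 0.101). The 2 called were the NF-Y subunits Nfyb and Nfyc, at -0.26 and -0.24, and of 12 alternatives Nfyb lost its call in 5 and Nfyc in 6, DESeq2 among them.

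Most of the listed germ cell genes of this age were lower in KO. All 12 pachytene spermatocyte markers were lower in KO, with a median of -0.84, and their summed level was 3349 and 3032 CPM in KO, against 4964 and 5088 CPM in WT. The 12 markers ran from -0.46 (Mybl1) to -1.23 (Ccna1), with Piwil1, a piRNA-binding protein of that stage, at -0.74. Of 17 tested genes for meiotic proteins that have been studied together with the proteasome, such as the synaptonemal complex gene Sycp3 (-0.41), 15 were lower, with a median of -0.44. Of 12 Sertoli cell markers 4 were higher and none lower, with a median of 0.17, and of 7 Leydig cell markers 2 were higher and 2 lower. Over all genes tested, 20.3% were lower and 11.6% higher, and over genes of at least 10 CPM 42.0% were lower and 9.03% higher. The part of a changed share of these cells in the levels of Psma8 and the other members was not tested.

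**Figure D3:**
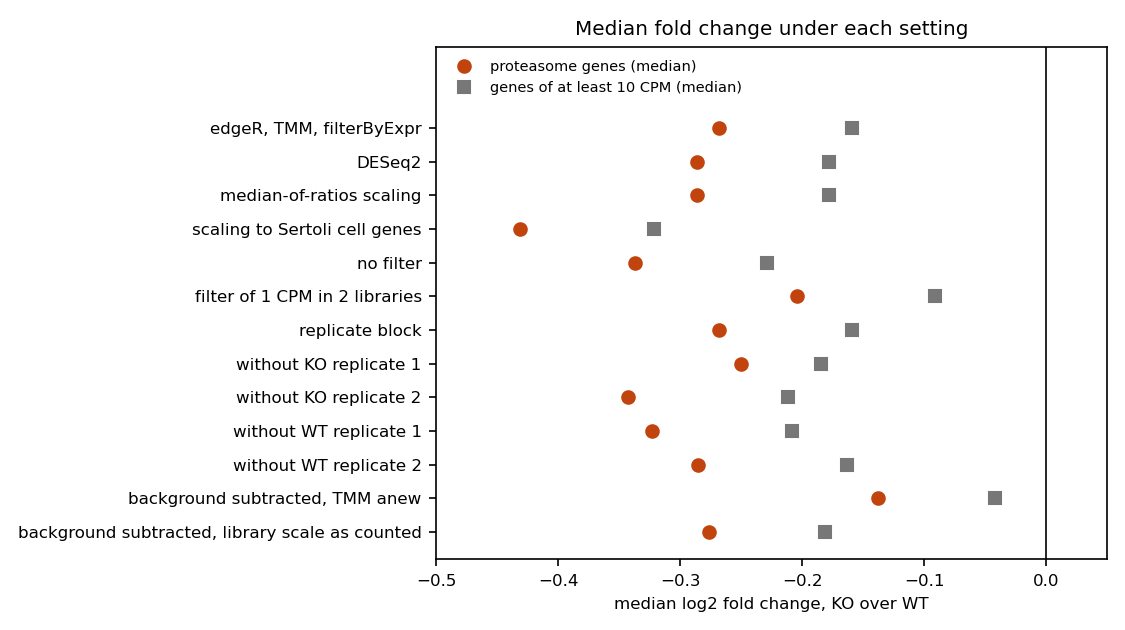
Median log2 fold change, KO over WT (x axis), of the proteasome genes (circles) and of genes with at least 10 CPM (squares) under the test used and under each alternative treatment of the counts (y axis). The circles lie left of the squares throughout, by between 0.07 and 0.13, while both medians move together with the scaling of libraries, which by itself hardly alters their difference.

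Across the 12 alternatives the members' median ran from -0.43 to -0.14. Rescaling the libraries shifts members and other genes alike, so the difference between their medians says something only where the data themselves change. With a library left out it ran from -0.13 (without KO replicate 2) to -0.07 (without KO replicate 1), and with background subtracted it was -0.10, against -0.11 with the test used. With libraries scaled to Sertoli cell genes 43 members were called lower. With background subtracted and TMM computed anew 15 of 47 were. Of the 28 members called lower, 28 had a negative fold change under each alternative, and 15 were called in all 12: Psma1, Psma2, Psma6, Psma8, Psmb6, Psmb7, Psmc2, Psmc3, Psmc4, Psmd2, Psmd8, Psmd13, Psmd14, Psme4 and Psmg1. Psma8 ranged from -0.87 to -0.57.

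The RNA exosome degrades short unstable transcripts that start upstream of promoters, mostly on the strand opposite to the gene. The authors counted reads in the 3000 bases before genes on both strands, and 25 of the 48 members have such a region among 30166, none overlapping another annotated gene. The regions of Psmb5 and Psmb11, genes on opposite strands, overlap each other. A read there can count as antisense for 1 gene and as sense for the other. On the antisense strand 5 of 25 member regions were higher in KO and none lower at an adjusted p under 0.05 (edgeR, with the library sizes and TMM factors of the gene table). Over all 18596 antisense regions tested, 11.4% were higher and 0.113% lower. The general shift was as large as that of the members, with a median log2 fold change of 1.01 over all regions and 1.0 over the members. On the sense strand 22 member regions could be tested and none was called, at a background of 0.0544% higher and 0.00544% lower, with a median of 0.93 over all regions and 0.49 over the members. The count of sense calls was unstable: against 10 with the test used, 3050 regions were higher without WT replicate 1, 2 of them of members, 280 without WT replicate 2, 27 without KO replicate 1, 1086 with no filter and 1609 with the replicate number as a block.

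The 5 called regions were those of the beta subunit genes Psmb2 and Psmb4, the activator gene Psme4 and the cap subunit genes Psmd12 and Psmd4. The region before Psmb2 (chr4:126674630-126677629) held 61 and 68 antisense reads in KO, against 9 and 16 in WT, although the WT libraries were deeper. Its log2 difference of 3.16 ± 0.343 (edgeR, adjusted p = 0.000146) was far above the general shift, and it was the one member region called in all 8 alternatives run on that table. Psme4 had 75 and 61 reads in KO, against 31 and 50 in WT (1.56 ± 0.289, edgeR, adjusted p = 0.00608). The Psmb2 region stood at 6.46 times the estimated read density outside genes in KO and at 1.51 times in WT. The Psme4 region stood at 6.81 times in KO and 4.88 times in WT.

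Psmb4 had 27 and 30 antisense reads in KO, against 13 and 15 in WT (1.81 ± 0.427, edgeR, adjusted p = 0.0213). Psmd12 had 15 and 19 in KO, against 8 and 6 in WT (2.03 ± 0.592, edgeR, adjusted p = 0.0412), and Psmd4 had 24 and 28 in KO, against 12 and 21 in WT (1.46 ± 0.432, edgeR, adjusted p = 0.0432). Against the estimated read density outside genes, Psmb4 stood at 2.85 times in KO and 1.69 times in WT. Psmd12 stood at 1.70 and 0.84 times, and Psmd4 at 2.60 and 1.99 times. In these regions too each KO library held more depth-scaled reads than each WT library, but with the upstream table scaled on itself, which removes the general shift, Psmb2 alone stayed called. Without KO replicate 1 the call held for 1 member region and without KO replicate 2 for 2. The genes themselves were all lower in KO, by between 0.25 and 0.33. Of all 48 members 28 were called lower and 45 had a negative fold change. A link between antisense reads and gene levels was not tested.

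The regions of Psmc4, Psme4 and Psma3 held the most antisense reads. Psmc4 had 40 and 61 in KO, against 43 and 88 in WT, and Psma3 had 44 and 40 in KO, against 41 and 51 in WT. Neither Psmc4 nor Psma3 was called (edgeR, adjusted p = 0.271 for Psmc4 and 0.119 for Psma3). Psma8, the gene that fell most, had 25 and 17 antisense reads in KO, against 21 and 19 in WT, and 16 and 15 sense reads in KO, against 16 and 38 in WT, and neither strand was called.

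**Figure D4:**
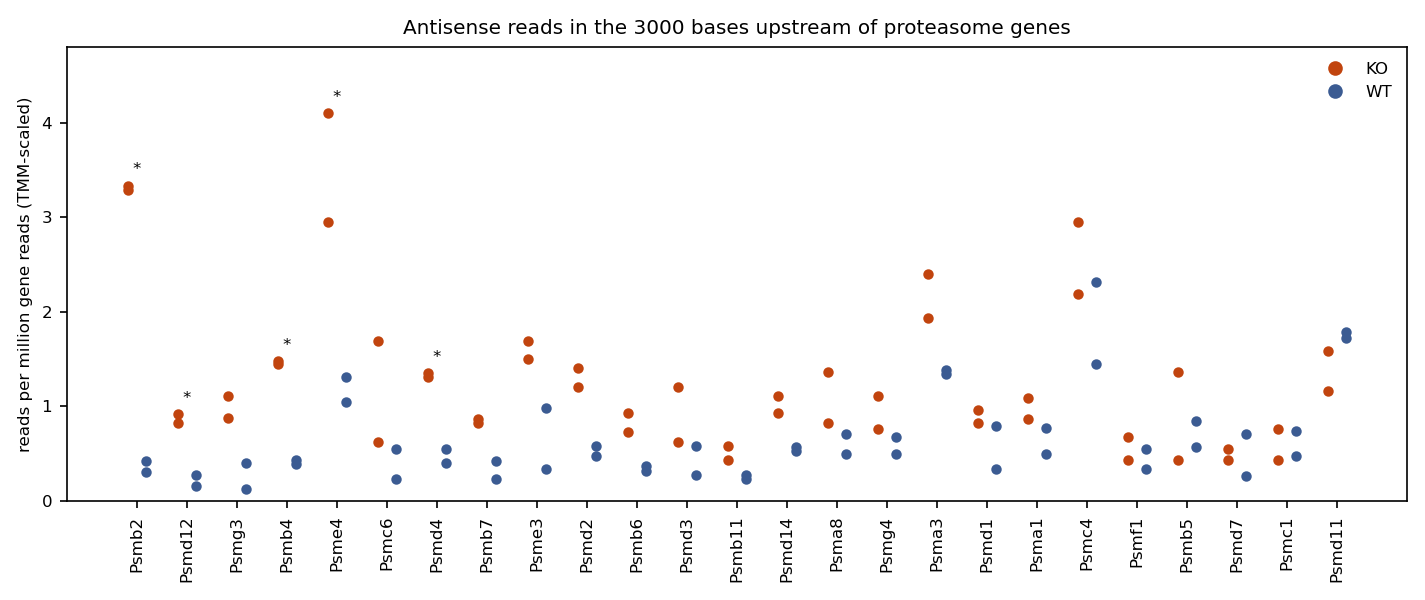
Antisense reads in the 3000 bases upstream of 25 proteasome genes, as CPM of the gene table (y axis), in 2 KO and 2 WT libraries (points), ordered by fold change; a star marks the 5 regions called higher in KO. The Psmb2 region is the most separated, with 61 and 68 reads in KO, against 9 and 16 in WT.

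The promoter windows of called regions are shown because the antisense reads were counted in the stretches that start with them. They are the bases from 250 before the RefSeq start up to the base before the gene's start in the count table, from RefSeq's table for GRCm38.p6, 5′ to 3′ on the strand of the gene. That table holds no window for Psmb2. Capitals mark matches, on either strand, to the letters CCAAT (the NF-Y box), TGACNNNGC (the antioxidant response element bound by Nfe2l1), GAAA, any 2 bases and GAAA again (the interferon-stimulated response element) and TATAAA (the TATA box).
Psme4, chr11:30771525-30771725 (+ strand): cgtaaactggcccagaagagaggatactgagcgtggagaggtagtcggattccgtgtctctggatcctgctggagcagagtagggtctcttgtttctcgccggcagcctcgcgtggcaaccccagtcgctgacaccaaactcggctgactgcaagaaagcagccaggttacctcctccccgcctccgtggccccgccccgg
Psmb4, chr3:94886962-94887208 (- strand): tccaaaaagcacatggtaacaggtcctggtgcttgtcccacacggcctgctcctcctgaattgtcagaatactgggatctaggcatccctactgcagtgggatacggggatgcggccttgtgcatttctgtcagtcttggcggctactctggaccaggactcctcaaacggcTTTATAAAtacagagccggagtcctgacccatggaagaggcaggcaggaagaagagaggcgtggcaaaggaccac
Psmd12, chr11:107479278-107479483 (+ strand): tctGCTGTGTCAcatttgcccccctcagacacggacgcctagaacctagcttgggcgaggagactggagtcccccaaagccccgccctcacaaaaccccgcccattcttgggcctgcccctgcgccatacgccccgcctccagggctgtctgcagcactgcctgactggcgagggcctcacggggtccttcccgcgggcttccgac
Psmd4, chr3:95042615-95042864 (- strand): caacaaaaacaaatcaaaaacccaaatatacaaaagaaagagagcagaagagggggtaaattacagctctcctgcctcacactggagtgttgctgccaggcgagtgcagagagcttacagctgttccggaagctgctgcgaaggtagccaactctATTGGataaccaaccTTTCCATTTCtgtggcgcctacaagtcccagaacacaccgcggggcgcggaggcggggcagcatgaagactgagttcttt

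The Psme4 window held none of these letters. In Psmb4 the capitals are TATAAA read on both strands, which overlap. Psmd12 held 1 TGACNNNGC on the opposite strand, and Psmd4 held CCAAT and the paired GAAA, both on the opposite strand. Of the 40 members with a window in the table, CCAAT was in 35% against 37.5% of all genes, TGACNNNGC in 12.5% against 11.5%, the paired GAAA in 7.5% against 3.46% (3 members, Psmb3, Psmd4 and Psmd9), and TATAAA in 10% against 14.3%. The median GC content was 57.6% in member windows and 52.4% in all windows. A match is a string of letters and no sign of binding.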

How the data were processed

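RNA of 4 whole testis libraries (2 KO, 2 WT) was analysed from the read counts that the authors deposited. Per the file headers the authors made them with featureCounts 1.6.4 by strand, over exons of genes and over 3000 bases upstream of genes, with GENCODE M18. The tools cutadapt and HISAT2 and the build GRCm38.p5 are named, without steps, in the submitters' processing notes. The recorded commands show no option to keep multi-mapping reads, which lowers counts of near-identical genes. Groups and replicate numbers came from the titles.

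After filterByExpr and TMM scaling, edgeR 4.0.16 (R 4.3.3) fitted a robust quasi-likelihood model of genotype to the counts, with p-values adjusted over all features of a table (Benjamini-Hochberg, 0.05). The SE is the size of the log2 fold change divided by the square root of F. CPM uses the TMM-scaled total of gene reads of each library. Background is the trimmed mean of upstream regions of 14248 autosomal genes that were not tested, with a fraction of 0.25 dropped at each end. Alternatives are given under the dependence on processing, with DESeq2 1.42.0 among them, and the scripts were tested on simulated data. Members and gene lists were chosen with earlier results of these data known. Values in full are given for Psma8, Psma7, the immune subunits with their partners, Psme4 and the 5 largest falls of at least 10 CPM (no rise reached that level); other members are named with their values seen. Replicates differed beyond sampling noise (chi-square per degree of freedom 5.08 in KO and 4.54 in WT). Intervals and errors cover these libraries only.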

Additional observations from a re-analysis of the deposited data

How the results depend on the processing

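Members called lower, 28 with the test used, were 26 with DESeq2 (25 of the 28), 31 with median-of-ratios scaling, 43 with scaling to Sertoli cell genes, 33 with no filter, 25 with a filter of 1 CPM in 2 libraries, 15 with background subtracted and TMM computed anew, 29 with background subtracted at the library scale as counted, and 24 to 29 with a library left out (22 of the 28 without WT replicate 2). Sertoli scaling gave a median of all genes of -0.11, against 0.05 with TMM. Members called higher, 1 with the test used, were 0 under each of these except the 1 CPM filter (1) and, of the left-out libraries, WT replicate 1 (range 0 to 1). Over all genes the higher calls were 1081 with DESeq2, 1563 with Sertoli scaling, 1937 with no filter, 1156 with background subtracted at the scale as counted, and 1324 to 2429 with a library left out; the lower calls were 7796 with Sertoli scaling, 3351 with background subtracted and TMM anew, and 4060 to 5260 with a library left out.

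Antisense upstream regions called higher, 2114 with the test used, were 48 (139 lower) with the table scaled on itself and 686 with DESeq2, and 382 to 4836 (9 to 34 lower) with a library left out. Member regions among them were 1 with the table scaled on itself, 3 with DESeq2, 8 with no filter and 1 to 7 with a library left out. Sense regions called higher, 10 with the test used, were 2 (57 lower) with the table scaled on itself and 1086 (31 lower) with no filter, 19 were lower with DESeq2, and a left-out library gave 15 to 3050 higher and 5 to 27 lower. Of the member sense regions 0 to 2 were higher with a library left out, the 2 without WT replicate 1. The cause of these changes was not tested.

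Replicate numbers are shared by the genotypes, and over tested genes they showed no pairing of the libraries (correlation of same-number deviations 0.0141). This correlation was not computed over upstream regions. With the replicate block 32 members were lower and 1 higher, 8 member regions were higher in antisense, and 1609 sense regions were higher and 42 lower. Within-library ratios under left-out libraries ran from -0.65 to -0.56 for Psma8 over Psma7, 0.08 to 1.16 for Psmb8 over Psmb5, 1.1 to 1.42 for Psmb9 over Psmb6 and 0.20 to 0.41 for Psmb10 over Psmb7. Psme4 over Psme3 changed sign without KO replicate 2 (0.047) and without WT replicate 1 (0.035), with a range of -0.11 to 0.047. Psmb9 had 48 to 55 reads in a library, and no limit of detection was computed for scarce subunits.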
